A study of Mus musculus with 4 samples.

Results

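Malat1 is a long noncoding RNA that stays in the nucleus. Its crosslink sites were taken from a list of significant SRSF4 contacts in cultured mouse heart muscle cells. They were chosen as the minus-strand sites of chromosome 19 between positions 5795000 and 5803000 of the mm9 build, the locus of Malat1 on that build. This gave 1888 of the 33749 sites in the whole list, with 11994 of its 93371 cDNAs. The locus was picked because of these counts, so every value below is a description and carries no test of whether the locus stands apart. The RefSeq and GENCODE tables at hand (Malat1, ENSMUSG00000092341.3) describe another build, GRCm38. Sites were therefore not assigned to exons or isoforms, and no sequence around them is shown.

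The cells were neonatal cardiomyocytes of C57BL/6 mice at day 0 or 1 after birth. They received 15 μg of a modified messenger RNA (modRNA) for SRSF4 fused to GFP by transfection, and ultraviolet light of 254 nm (100 mJ) was applied once, 48 h afterwards. All 4 labelled libraries belong to this same group, so there is no untransfected, GFP-only or input control, and the fusion was supplied in addition to the cells' own SRSF4. The values are 1 pooled list, which the file header describes as a sum over 5 data sets. That number does not match the 4 libraries, so every cDNA count may include a data set whose origin is not known here. No spread between libraries could be computed, and the depth of each library is unknown. Whether the labelled cells carry cardiomyocyte markers was not tested.

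SRSF4 is a member of the SR family, RNA-binding proteins that take part in splice-site choice and gather in nuclear speckles. Malat1 is an abundant transcript of those same speckles and is made largely as a single unspliced RNA. Its 3′ end is formed by cleavage that releases a small tRNA-like RNA, and a triple helix protects the end that remains. iCLIP (individual-nucleotide crosslinking and immunoprecipitation) marks the nucleotide at which reverse transcription stopped on RNA crosslinked to the pulled-down protein. Each cDNA counted at a position is 1 such stop.

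Contacts on Malat1 were numerous and deep. The locus held 5.59% of the sites in the list (95% exact binomial interval 5.35% to 5.84%) but 12.8% of the cDNAs (12.6% to 13.1%). On chromosome 19 it held 61.6% of sites and 87.5% of cDNAs. Intervals here treat cDNAs, or sites where a share of sites is given, as independent and cover counting error only. Since 97.0% of Malat1 sites had an adjacent listed site, sites are not independent. Nor are cDNAs, of which up to 59 fell on 1 nucleotide of the locus. Intervals on shares of sites and on shares of cDNAs are therefore too narrow. All but 1 of the 1888 sites formed a single run, in which each site lay less than 500 nt from the one before. The run reached from 5802675 at its 5′ end down to 5796325 at its 3′ end, and its 1887 sites carried 11992 cDNAs over 6351 nt. The RefSeq Malat1 transcript is 6983 nt long, 632 nt longer than the run, but how the run is placed within it was not determined across builds.

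The surroundings of the run were almost empty of listed sites. A lone site with 2 cDNAs lay at 5795094, separated from the 3′ end of the run by 1230 nt. It was 94 nt inside the lower bound of the chosen interval. The nearest minus-strand sites outside the interval carried 1 cDNA each, at 5840977, which is 38.3 kb upstream of the run, and at 5725838, which is 70.5 kb downstream. No plus-strand site fell in the interval. The nearest one on that strand, with 1 cDNA, was 4048 nt beyond the 3′ end of the run.

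Single-cDNA sites were a small share on Malat1, as they were in the 45S run described below, and the larger share in the rest of the list as a whole. The median site in the run carried 4 cDNAs and the mean was 6.36, with 25th and 75th percentiles of 2 and 8. In the rest of the list the median was 1 and the mean 2.55. A single cDNA marked 262 sites of the run, or 13.9% (95% exact interval 12.4% to 15.5%), against 67.9% of sites elsewhere. Among the other deep runs the share was 10.1% in the 45S run, 24.5% in a run on chromosome 5, 25.5% in a mitochondrial run, 28.7% in a run on chromosome 11 and 35.3% in a run on chromosome 3, each with a mean above 5 cDNAs per site. Sites with 10 or more cDNAs numbered 400 (21.2%) and carried 52.2% of the cDNAs of the run. Elsewhere such sites were 4.04% of the total. The locus thus supplied 23.7% of the 1688 sites in the whole list that reached 10 cDNAs. Sites were listed by sums over a neighbourhood, with regions taken separately. Listed cDNAs within the 31 nt centred on a site had a 5th percentile of 57.9 on Malat1 and a median of 6 elsewhere. Sites with few cDNAs may therefore have been listed under unlike limits, and the part of this in the shares above was not tested.

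That depth was shared among many nucleotides. The 19 highest sites, the top 1% of the run, carried 690 cDNAs or 5.75%. It took 374 sites, 19.8% of the run, to reach 50% of its cDNAs. The highest site held 59 cDNAs, which is 0.492% of the run. By comparison, 85 sites elsewhere in the list were higher, up to 296 cDNAs.

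From 5′ to 3′, contacts spread over nearly the whole run with a moderate excess on the 5′ side of its middle. Split at its middle, the run held 6674 cDNAs at 1039 sites on the 5′ side and 5318 cDNAs at 848 sites on the 3′ side. The 5′ share was 55.7% of cDNAs (95% exact interval 54.8% to 56.5%) and 55.1% of sites, and the mean depth per site was 6.42 and 6.27 on the 5′ and 3′ sides. Counted from the 5′-most site, 25% of cDNAs were reached at 1221 nt, 50% at 2699 nt and 75% at 4478 nt.

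By kilobase, the second one was the deepest. It held 2969 cDNAs at 471 sites, and 47.1% of its nucleotides were listed. The first kilobase held 1976 cDNAs and the sixth 2111. Those between them, from 2000 to 5000 nt, lay lower and close together, at 1552, 1734 and 1616 cDNAs. The remaining 351 nt at the 3′ end held 34 cDNAs at 6 sites. Mean cDNAs per site moved little across the 6 full kilobases, from 5.88 to 6.77.

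**Figure D1:**
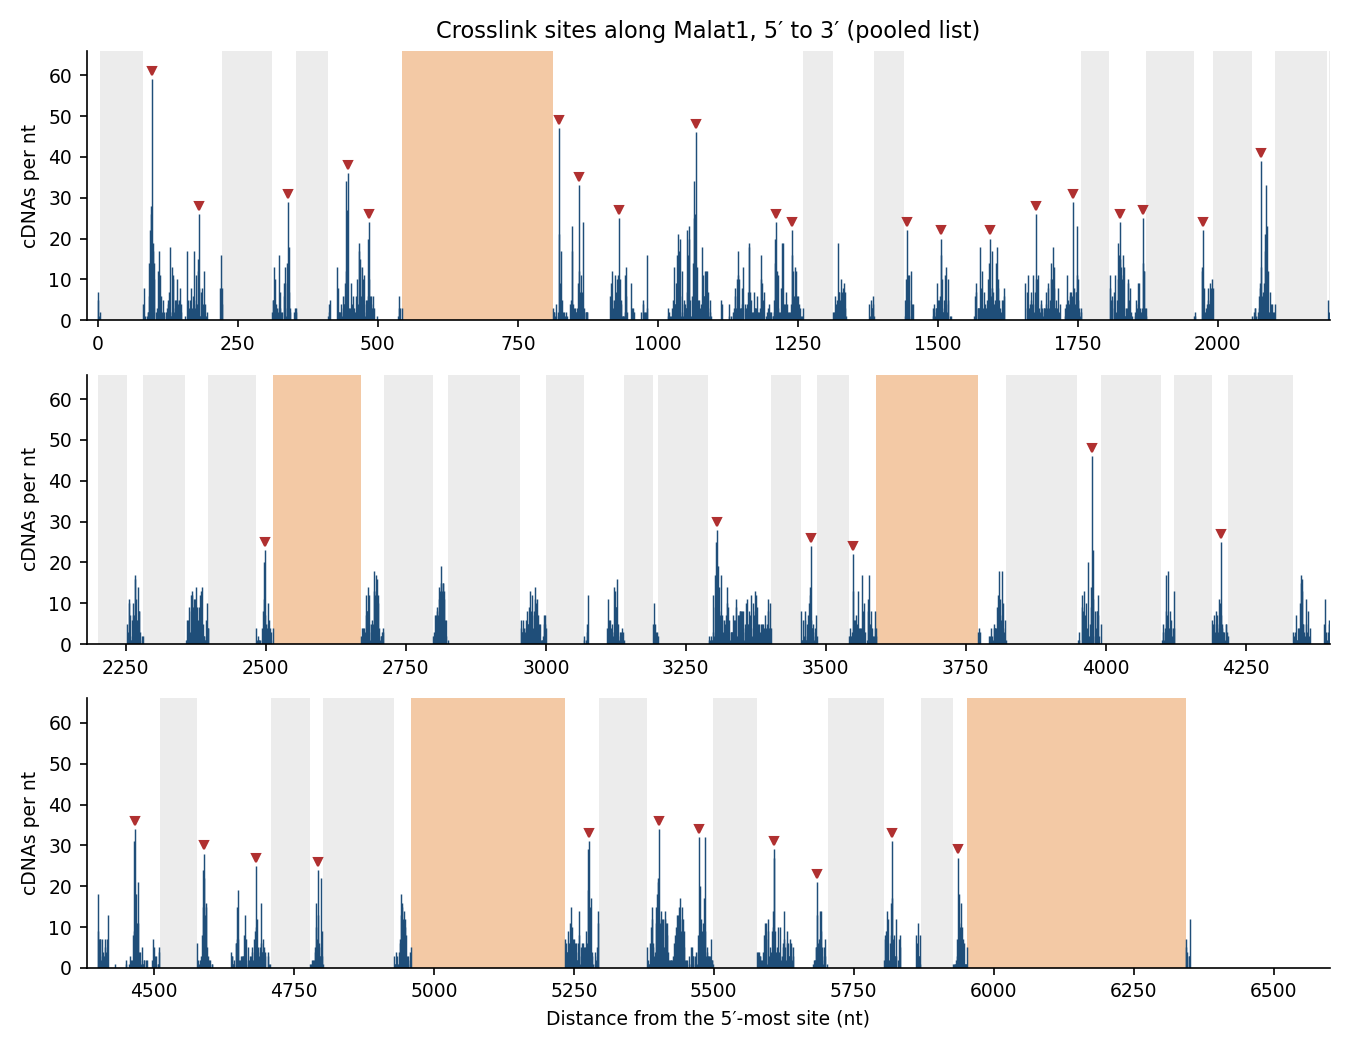
Crosslink sites of the Malat1 run in 3 successive panels, plotted by distance from the 5′-most site in nt (horizontal) and pooled cDNAs at each nucleotide (vertical, linear); each line is 1 site, red triangles mark the 37 peaks, grey bands the gaps of 50 nt or more and orange bands the 5 longest of them. Sites form separate dense blocks along the full length, the highest reaches 59 cDNAs near the 5′ end, and the longest gap, of 390 nt, lies near the 3′ end.

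The 10 highest nucleotides were spread along the transcript, 7 of them on the 5′ side of the middle and 3 on the 3′ side. The highest, at 5802578, lay 97 nt from the 5′-most site and carried 59 cDNAs, with 12 and 17 at the adjacent nucleotides on its 5′ and 3′ sides. The next was at 5801851, 824 nt in, with 47 cDNAs. Sites at 5801607 and 5798700, at 1068 and 3975 nt, carried 46 each. These 4 are thus found both near the 5′ end and well beyond the middle.

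Position 5800598, at 2077 nt, carried 39 cDNAs. Positions 5802231 and 5802229 lay 2 nt apart with 34 and 36, and 27 cDNAs stood on the nucleotide between them. The remaining 3, with 34 each, were at 5801611, 5798208 and 5797273. Position 5801611 was a neighbour of 5801607, so the 10 nucleotides mark 8 separate places. Together they held 409 cDNAs, 3.41% of the run.

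Defined as a nucleotide with 20 or more cDNAs that is the highest within 25 nt on either side, 37 peaks were found on Malat1. There were 21 on the 5′ side of the middle and 16 on the 3′ side, and 12 reached 30 cDNAs. Neighbouring peaks were a median of 108.5 nt apart, and 15 of the 36 spacings were under 100 nt. The widest spacing, 807 nt between 2498 and 3305 nt from the 5′-most site, was not bare. It held 176 sites with 1058 cDNAs, but more than 20 nt away from the bounding peaks no site in it rose above 19.

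The peaks were crests of broader contacts. At all 37, both adjacent nucleotides were also listed, as they were at 78.5% of all sites of the run. Sites were listed by sums over a neighbourhood, so listed neighbours are partly built in. The summit held between 6.67% and 25.4% of the cDNAs within 25 nt, with a median of 14.6%. The lowest share was at 5801082, where 20 of 300 cDNAs were on the summit, and the highest at 5801851, with 47 of 185. The 5 nt to each side of all peaks, summits included, covered 6.41% of the length of the run and carried 33.5% of its cDNAs. Peaks were picked by their cDNAs, and the length of the run includes gaps without sites. That contrast is therefore partly built in.

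The nucleotide on the 5′ side of a summit was often the higher neighbour. This was so at 27 of 37 peaks, while the 3′ neighbour was higher at 9 and both were equal at 1. Summed over peaks, the 5′ neighbours held 555 cDNAs and the 3′ neighbours 383. Over 5 nt to each side the sums were 1586 and 1351, with the 5′ side higher at 19 peaks and the 3′ side at 17. Some of these peaks lie close together, so they are not independent.

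When a gap of 50 nt or more without a listed site was taken to end a block, the run fell into 36 blocks. Together the blocks covered 2701 nt, of which 69.9% were listed sites. Blocks were ranked by their total cDNAs and not by cDNAs per nt. The block with the most cDNAs spanned 447 nt from 5801862 to 5801416, 813 to 1259 nt from the 5′-most site. It held 269 sites and 1777 cDNAs, 14.8% of the run, and 2 of the 4 highest nucleotides lay in it. The second by cDNAs, 316 nt from 5801234 to 5800919, held 178 sites and 1067 cDNAs. Per 100 nt of width these 2 blocks held 398 and 338 cDNAs. The highest such value among blocks with at least 10 sites was 793. Both blocks are in the second kilobase or reach into it.

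The block next in total cDNAs, from 5797294 to 5797177, lay far toward the 3′ end. It was only 118 nt wide, yet 109 of its nucleotides were listed and carried 819 cDNAs. The next, from 5802594 to 5802453, held 690 cDNAs at 97 sites, among them the highest nucleotide of the locus. The last of the 5, from 5799384 to 5799273, was a near-continuous contact: 108 of its 112 nucleotides were listed, with 679 cDNAs and no site above 28. Within it lay the longest stretch of adjacent listed nucleotides, 64 in a row with 366 cDNAs and between 1 and 14 at each. These 5 blocks made up 17.9% of the length of the run and 42.0% of its cDNAs. They were picked by their cDNAs, and the length of the run includes gaps without sites. Of the 2701 nt inside blocks they took up 1135 nt, a share close to their share of cDNAs.

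**Figure D2:**
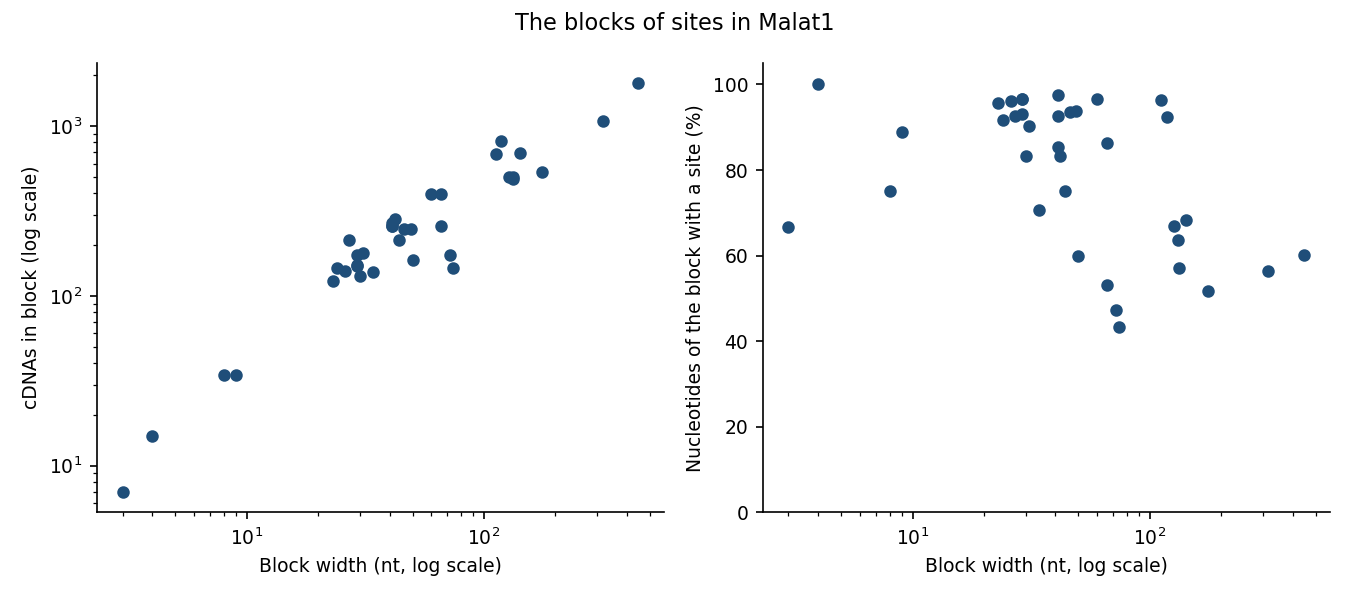
The 36 blocks of sites in Malat1, each a point, with block width in nt on a log axis against the cDNAs in the block on a log axis (left) and against the percent of its nucleotides that were listed sites on a linear axis (right). cDNAs rise with width up to 1777 in the block of 447 nt, and blocks of 23 to 31 nt are filled to between 83.3% and 96.6%.

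Block widths ranged from narrow to broad, with many in between. The 9 blocks of 100 nt or more held 58.8% of the cDNAs of the run, between 486 and 1777 each. Another 14, from 34 to 74 nt wide, held 28.7%, between 138 and 399 each. The narrowest 9 with at least 10 sites, taken as those up to 31 nt, were 23 nt wide or more and held 11.7%. Each of these narrow blocks held between 122 and 214 cDNAs, its highest site had 17 to 27 cDNAs, and this site lay at most 3.5 nt from the centre of the block (median 1.00 nt). Sites were listed by their sum within 15 nt to each side, and the part of that setting in the shape of the blocks was not tested. Mean depth per site overlapped across widths, at 5.20 to 8.56 cDNAs in the narrowest, 4.53 to 8.11 in the middle and 5.79 to 7.51 in the widest blocks.

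Only 4 blocks had fewer than 10 sites, with 90 cDNAs between them and no site above 12. A block of 4 adjacent sites with 15 cDNAs formed the 5′ end of the run, from 5802675 to 5802672. Another of 6 sites with 34 cDNAs, from 5796332 to 5796325, formed its 3′ end. The other 32 blocks all held between 196 and 793 cDNAs per 100 nt of their width.

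Between the blocks lay 35 gaps that together took up 57.5% of the length of the run. Their median length was 85 nt, 11 were of 100 nt or more and 3 of over 200 nt. The longest, 390 nt from 5796722 to 5796333, separated the last few sites at the 3′ end from the rest. The next in length were 275 nt from 5797715 to 5797441 and 269 nt from 5802131 to 5801863. The latter parted the 4 blocks of the 5′ end from the block with the most cDNAs. The remaining 2 of the 5 longest measured 181 nt from 5799084 to 5798904 and 157 nt from 5800162 to 5800006. The 5 longest gaps are thus spread from the first kilobase to the 3′ end.

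A gap here is a stretch without a significant site, which need not be a stretch without cDNAs. Nearly all Malat1 sites were listed at a local depth far above that of most of the list. Summed over the 31 nt centred on a site, listed cDNAs had a median of 148 on Malat1, a 5th percentile of 57.9 and a lowest value of 7. Only 6 of 1887 sites had a sum under 13. In the rest of the list the median sum was 6, and 53.6% of sites had a sum under 7. The second chromosome 19 run, described below, was listed throughout at sums of 28 or less. Whether contacts of that depth occurred in the gaps of Malat1 cannot be told from a list of significant sites.

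In bins of 100 nt, the deep places differed from the others mainly in how many nucleotides were listed. Of 64 bins, 9 were empty and the median held 173 cDNAs. The 6 deepest bins, with 400 to 690 cDNAs each, held 27.1% of the run, and 3 of them were on the 5′ side of the middle. They started at 5400, 3300, 1000, 400, 100 and 5600 nt from the 5′-most site, in order of depth. They averaged 78.3 sites per bin against 28.9 in the other 49 bins with sites, 2.71 times as many. Their mean depth was 6.90 cDNAs per site against 6.17, 1.12 times as high. The deep bins were picked by their cDNAs, sites were listed by local sums, and some of the other bins lie largely inside gaps. The contrast is therefore partly built in. Over the 64 bins the number of sites and the number of cDNAs had a Pearson r of 0.970, given as a description, since both come from the same cDNAs.

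**Figure D3:**
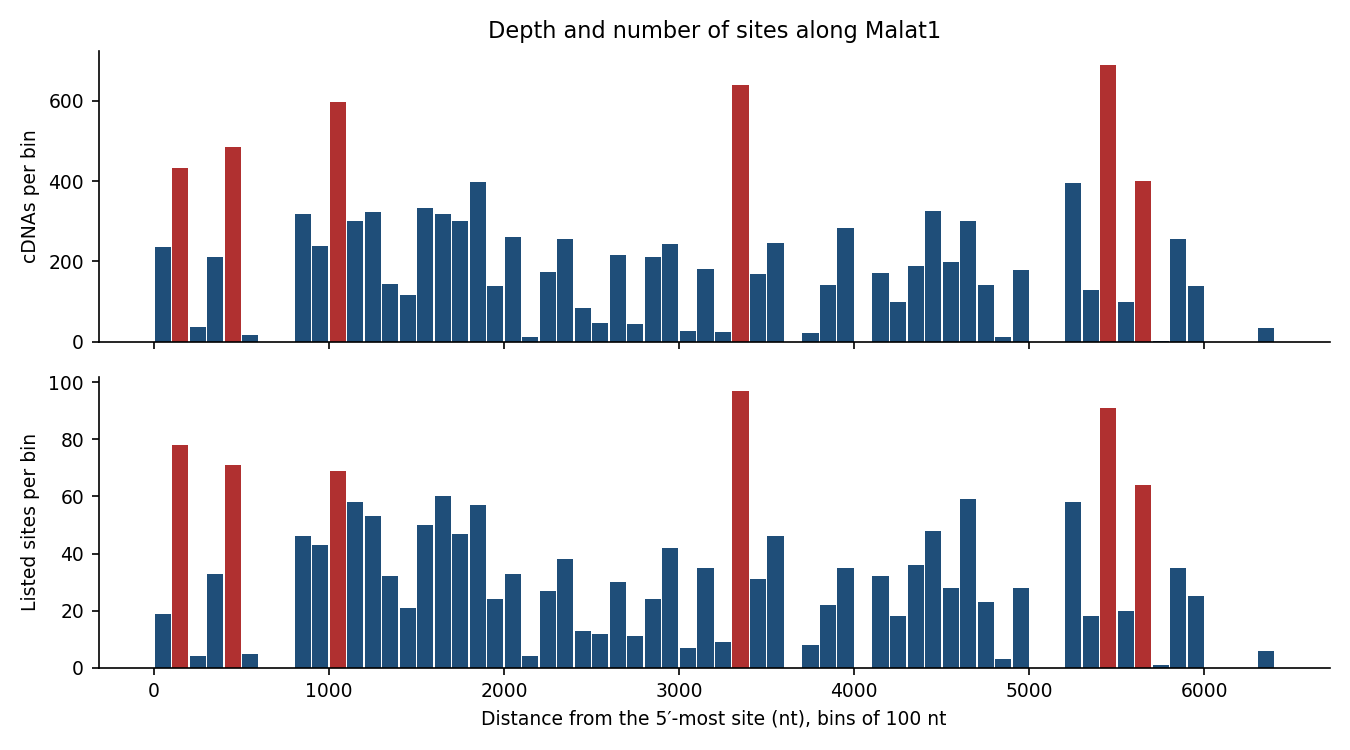
cDNAs (top) and listed sites (bottom) in 64 bins of 100 nt along the Malat1 run, from the 5′-most site on, both on linear axes from 0; the 6 bins with the most cDNAs are red. The 2 panels have nearly the same outline, with the highest bins, 690 and 638 cDNAs, at 91 and 97 sites.

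Neat1, the scaffold RNA of paraspeckles and a neighbour of Malat1 on the same strand, was compared first. The names Neat1 and 45S rest on the known places of these genes and not on an annotation of mm9. The Neat1 run, from 5845333 to 5842334, lay 39.7 kb upstream and held 441 sites with 639 cDNAs over 3000 nt. No test of the difference was made, because the pooled list has no replicates and Malat1 was chosen on these values. Depth per 100 nt was 189 cDNAs on Malat1 and 21.3 on Neat1. Single-cDNA sites were 13.9% on Malat1 and 67.8% on Neat1, and none of the Neat1 sites reached 10 cDNAs; the highest had 8. Inside blocks, 69.9% of nucleotides were listed on Malat1 and 26.0% on Neat1. The 5′ side of the middle held 55.7% of cDNAs on Malat1 and 76.4% on Neat1. The amount of either RNA in the cells was not measured here, so these values are not corrected for abundance.

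Of the 20 runs with 100 or more sites, 1 held more cDNAs than Malat1. It was the deeper of 2 such runs on the plus strand of chromosome 17 attributed to the 45S ribosomal RNA precursor (39983381 to 39985047). The other, upstream from 39979937 to 39981079, held 1026 cDNAs at 431 sites, with 71.4% of the cDNAs on the 5′ side of its middle. The 45S genes are repeated in the genome, and how the authors placed reads with several matches is not known here. The deeper run held 14600 cDNAs at 1065 sites in 1667 nt, or 876 per 100 nt. Its median site had 7 cDNAs against 4 on Malat1, and its highest had 209 against 59. Gaps of 50 nt or more took up 16.4% of its length against 57.5% on Malat1. The 5′ side of its middle held 26.5% of its cDNAs, with the larger part on the 3′ side.

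**Figure D4:**
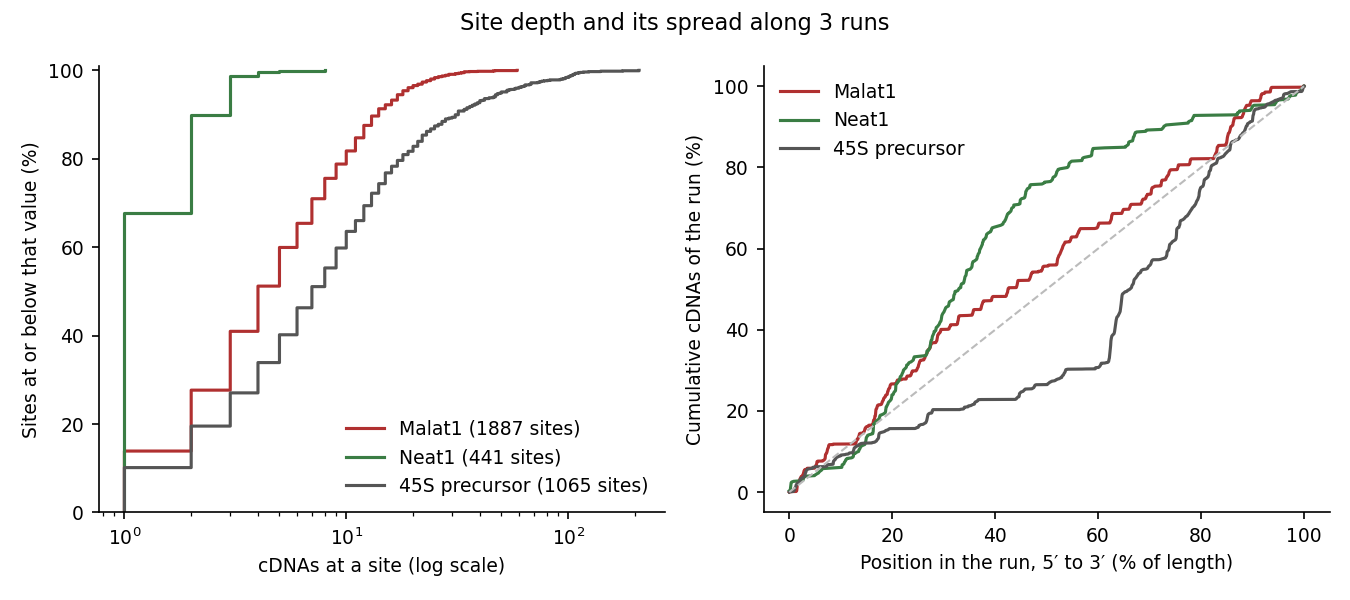
Left, the percent of sites at or below each number of cDNAs (log axis) in the runs of Malat1, Neat1 and the 45S precursor; right, the cumulative percent of cDNAs from 5′ to 3′ against position as percent of the length of the run, with a dashed line for even depth. The Malat1 curve lies between the others in site depth (medians of 4, 1 and 7 cDNAs) and is the nearest to the dashed line at the middle of the run, with 55.7% of cDNAs reached there against 76.4% and 26.5%.

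Among the 20 runs of the list with 100 or more sites, Malat1 had the most sites and the most peaks, 37 against at most 26 in the other 19. A peak needs a site with 20 or more cDNAs, and the highest site of the other runs had a median of 8. Most of them could therefore have no peak. Per 1000 nt, peaks numbered 15.6 in the 45S run, 12.7 on chromosome 5, 9.17 on chromosome 11 and 8.17 in the mitochondrial run. Malat1 ranked 5th, with 5.83. It ranked 4th in cDNAs per 100 nt and 7th in the share of nucleotides listed. It was the second in cDNAs and in length. The 1 longer run, of 12454 nt, averaged 1.27 cDNAs per site. The 3 runs with a higher mean depth per site than Malat1 were all shorter, at 314, 1667 and 2693 nt. Malat1 also had the lowest share of its cDNAs at its highest nucleotide, 0.492% against 0.695% to 7.58% in the other 19. The share at 1 nucleotide tends to be lower where sites are more numerous, and Malat1 had 1887 sites against at most 1065. By the share of cDNAs at the top 1% of sites, Malat1 ranked 8th of the 20, with 5.75% against a median of 3.57% in the others. In the share of length inside gaps Malat1 was near the middle, 57.5% against a median of 67.8%.

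**Figure D5:**
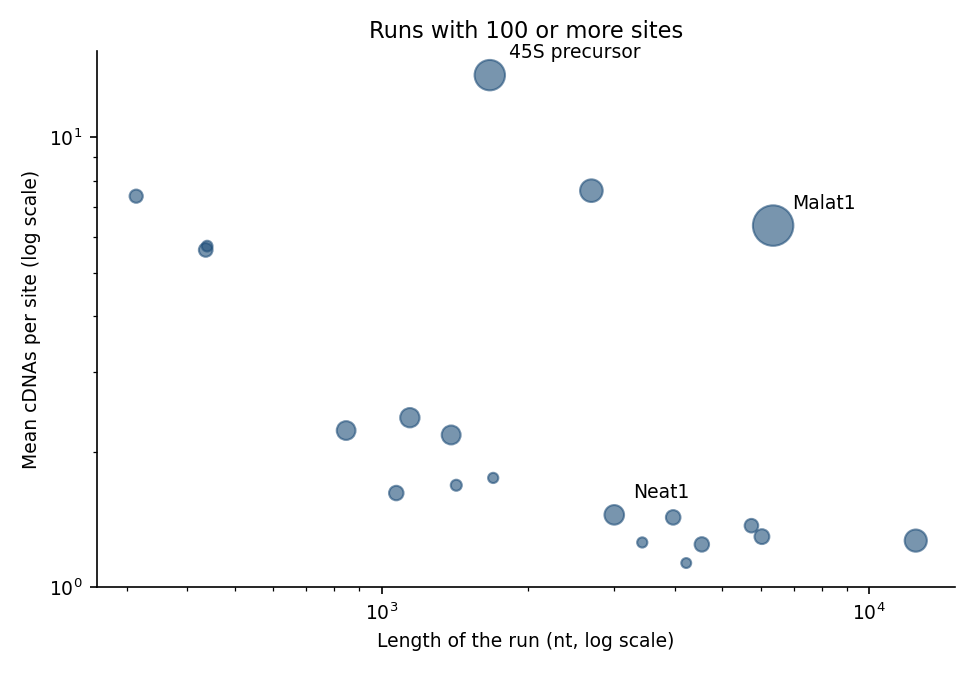
The 20 runs with 100 or more sites, each a point whose area is proportional to its number of sites, with the length of the run in nt against the mean cDNAs per site, both on log axes. Malat1 is the only run of over 3000 nt with a mean above 2 cDNAs per site; it stands at 6.36.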

How the data were processed

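SRSF4 contacts were measured by iCLIP in 4 libraries of 1 group. The deposited values are a score per nucleotide, a whole number of cDNAs signed by strand. Per the file headers, the authors summed 5 data sets on mm9 with Ensembl 59 and kept significant positions (100 permutations, neighbourhood of 15 nt, false discovery rate below 0.05, regions taken separately). The submitters' processing notes name Bowtie 0.10.1. The treatment of duplicates and of reads with several matches is not given in the sources used. Positions are 1-based.

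From the list, runs, gaps, blocks, peaks, 100 nt bins and 31 nt sums were computed with pandas 2.3.3, numpy 2.4.6 and scipy 1.17.1 under Python 3.11.15, and the procedures were tested on simulated data. The locus, the measures and the rule for the named positions were chosen with earlier results of these data known. The rule took the 10 highest sites, 5 longest gaps, 5 blocks with the most cDNAs and 6 deepest bins. Peaks, kilobases, narrow blocks, end blocks and the comparison runs beyond Neat1 and 45S were picked after the values had been seen. The alternatives changed the cDNA minimum, tall sites, gap, peak and bin settings and the middle of the locus. No test between groups was possible.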

Additional observations from a re-analysis of the deposited data

How the results depend on the processing

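Single libraries could not be left out because the list is pooled. No paired analysis was possible because there is 1 group. The 5′ share of cDNAs, 55.7%, was between 55.1% and 55.7% for sites with 2 or more cDNAs, for sites in place of cDNAs and without the top 1% of sites, and 64.9% with the middle of the interval of 5795000 to 5803000, which lies nearer the 3′ end. The 35 gaps numbered 46 with a shortest gap of 25 nt and 11 with 100 nt, and took up 63.7% and 31.2% of the length in place of 57.5%. The 37 peaks numbered 38 and 33 with half-windows of 15 and 50 nt, 62 from 10 cDNAs on and 12 from 30 on. The share of cDNAs in the deepest 10% of bins, 27.1%, was 33.4% in bins of 50 nt, 19.7% in bins of 200 nt and 24.9% when sites were counted. Mean cDNAs per site, 6.36, was 7.22 for sites with 2 or more cDNAs and 6.05 without the top 1%. Counts of gaps and peaks thus follow from the chosen limits. Depth limits what the gaps show, since unlisted cDNAs are not in the list.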
